A study of Mus musculus with 12 samples.

Results

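The genes described here are 10 genes of the Hippo pathway and its outputs, YAP and TEAD, in mouse hair follicle stem cells (HFSCs): the co-activators Yap1 and Wwtr1 (TAZ), the DNA-binding factors Tead1 and Tead3, the kinases Lats1 and Lats2, the scaffold gene Amotl2 and the target genes Cyr61, Ctgf and Ankrd1. They were matched by gene name and make up 10 of the 21942 genes listed in at least 1 of the series' 2 tables. Cyr61 and Ctgf are also called Ccn1 and Ccn2. RNA was sequenced from 12 libraries of HFSCs, which were sorted from C57BL/6J back skin for EpCAM, CD34 and a high level of α6-integrin and against Sca1, 3 biological replicates per group, from mice of both sexes. The Eed iKO libraries came from K15-CrePGR; Eed fl/fl mice at 70 days of age, in which RU-486 on the skin for a week from 50 days of age activates Cre in the bulge and deletes Eed, a core subunit of the Polycomb complex PRC2. The control libraries, labelled wild type, came from mice of the same age given ethanol in place of RU-486, and whether these mice carried the Cre or the floxed alleles is not given in the labels. RU-486 and the deletion of Eed thus cannot be told apart between these groups. The anagen libraries came from wild type mice of 28 to 30 days, when follicles grow, and the telogen libraries from wild type mice of 50 to 52 days, when they rest. Age and hair cycle phase therefore cannot be told apart in that comparison.

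In the Hippo pathway, a kinase cascade ends in LATS1 and LATS2, which phosphorylate YAP and TAZ and keep them out of the nucleus. YAP and TAZ that escape this control bind TEAD factors and switch on genes such as Cyr61 and Ctgf, which encode secreted matricellular proteins, and Ankrd1, which encodes an ankyrin repeat protein abundant in heart muscle. AMOTL2, an angiomotin, holds YAP at cell junctions, and its gene is itself a YAP target. In skin, YAP is known for promoting proliferation of epidermal progenitors. Because the pathway acts mainly on the location of proteins, messenger RNA levels of its members are a measure of their expression and not of YAP activity.

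The values are normalized counts. In the Eed table they were reads per gene scaled by a single factor per library, with 33269583 to 57063586 reads per library recovered from the values. In the hair cycle table, only 1.72% to 2.36% of a library's values were whole reads under a single factor. Their scaling and depth are therefore unknown. The 2 tables were normalized separately, and no level is compared between them. Ankrd1 has no row in the Eed table and is listed at 0 in all 6 hair cycle libraries. The other 9 members passed the filter on low values in both tables. The libraries held the bulge marker Krt15 at 142406 or more in every hair cycle library and at 537242 or more in every Eed table library. The level of the Eed transcript overlapped between the groups, at 1084, 1249 and 950.2 in control and 933.3, 1361 and 1001 in the libraries labelled Eed iKO. Its log2 fold change was -0.005 with a 95% interval from -0.48 to 0.47, so it gave no check of the deletion. The study itself reports lower Eed mRNA by RT-qPCR in sorted HFSCs and a loss of H3K27me3, the mark that PRC2 makes, by immunofluorescence at this age. Telogen replicate 1 had a lower summed level of the 14 bulge markers, 240718 against 634182 and 537302 in the other telogen libraries. That sum was carried by Krt15 (142406 against 416765 and 350444) and Krt5 (50461 against 155865 and 131957). Cd34, Itga6 and Krt14 were also lowest in telogen replicate 1, whereas Lhx2 and Epcam were highest there.

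The promoters of 3 target genes are shown first, since the levels of these genes are what the pathway is usually read from. Each sequence is the 250 bases before the RefSeq transcription start (GRCm38.p6), read along the gene's strand, and the capitals mark GGAATG or its reverse complement CATTCC, the core letters to which TEAD factors bind.

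Cyr61, chr3:145649986-145650235, minus strand: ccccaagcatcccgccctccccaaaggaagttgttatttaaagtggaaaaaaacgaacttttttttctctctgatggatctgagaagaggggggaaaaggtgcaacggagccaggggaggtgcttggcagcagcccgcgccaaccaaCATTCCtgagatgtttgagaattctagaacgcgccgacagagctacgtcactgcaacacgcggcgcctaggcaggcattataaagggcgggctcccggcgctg
Ankrd1, chr19:36119845-36120094, minus strand: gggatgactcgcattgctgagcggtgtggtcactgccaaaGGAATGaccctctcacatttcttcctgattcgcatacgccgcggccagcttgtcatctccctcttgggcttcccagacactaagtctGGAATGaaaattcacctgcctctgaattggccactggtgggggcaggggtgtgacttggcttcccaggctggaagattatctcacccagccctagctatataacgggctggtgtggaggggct
Amotl2, chr9:102717554-102717803, plus strand: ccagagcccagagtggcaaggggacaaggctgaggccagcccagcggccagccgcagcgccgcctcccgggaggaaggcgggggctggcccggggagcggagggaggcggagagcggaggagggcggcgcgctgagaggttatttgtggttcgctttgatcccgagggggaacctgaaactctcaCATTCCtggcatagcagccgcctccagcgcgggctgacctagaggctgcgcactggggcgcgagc

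The match began 103 bases before the start in Cyr61, 210 and 123 bases before it in Ankrd1, and 65 bases before it in Amotl2. Cyr61 and Ankrd1 also held the letters TATAA 25 bases before the start. Promoters were on file for 8 members, of which 6 held a match on either strand within 250 bases of at least 1 start. Counted by promoter, 8 of the members' 12 promoters held one, against 12.6% of all 32851 promoters of the same length. These promoters are not independent: the windows of the 2 Wwtr1 starts overlap, and their matches, 136 and 170 bases before the start, are the same site. Several windows of Tead3 were also counted. The members include known YAP targets, no share by gene was taken over all genes, and the difference was not tested. The others with a match were Yap1, Wwtr1 and Tead3, while Lats1 and Lats2 held none in this window. Ctgf and Tead1 had no entry. A match is a description of letters: Ankrd1, with its 2 matches, was listed at 0 in every hair cycle library, and Cyr61, with 1, was among the most abundant members.

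Between anagen and telogen, the YAP and TEAD genes moved in both directions. The target gene Ctgf was 6.07-fold lower in anagen, while the co-activator gene Wwtr1 and the DNA-binding factor gene Tead1 were 2.13-fold and 2.07-fold higher. The plot of the hair cycle libraries shows these values. Of the 9 members tested, 2 were higher and 1 was lower in anagen at an adjusted p under 0.05, where 11.6% of all 13457 genes tested passed (7.22% higher and 4.35% lower). At an unadjusted p under 0.05 there were 6 such members, against 27.3% of all genes. The groups of libraries did not overlap for 5 of the 9 members, against 33.3% of all genes. The median log2 fold change of the 9 members was -0.19 and that of all genes tested was 0.01. At the thresholds of the study's methods, a log2 fold change beyond 2 with an unadjusted p under 0.05, Ctgf was the 1 member that passed, against 5.1% of all genes. In bulk RNA, fewer cells of a type and less RNA per cell cannot be told apart.

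**Figure D1:**
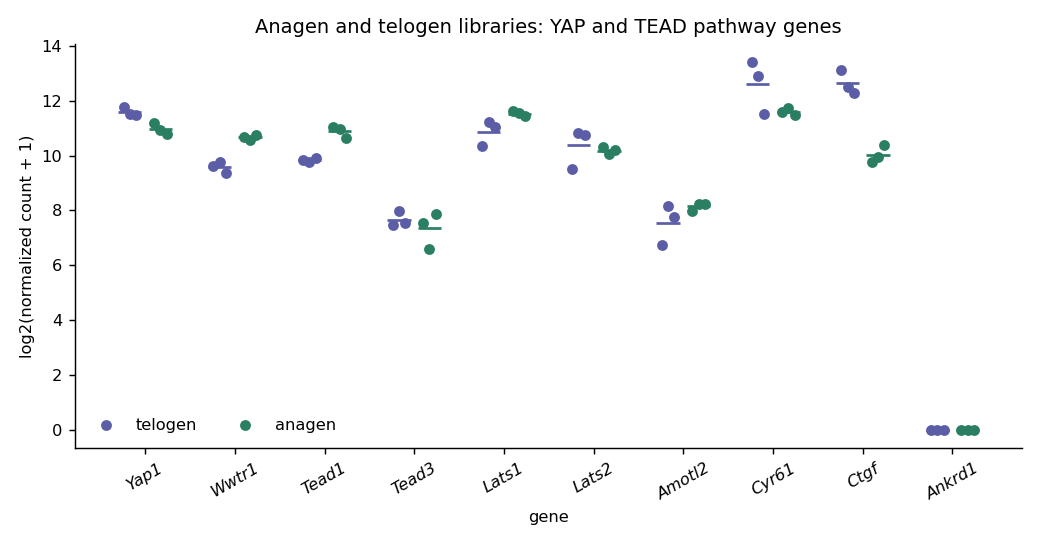
Normalized counts of the 10 members, as log2(count + 1), in the 3 telogen and 3 anagen libraries, with each point a library and each bar the mean of its group. The groups lie apart for Ctgf, Wwtr1, Tead1, Yap1 and Lats1, the telogen points of Cyr61 reach down to the anagen points, and Ankrd1 lies at 0 in every library.

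Among the co-activators, Wwtr1 rose in anagen and Yap1, whose mean was lower there, did not pass the test. Wwtr1, which encodes TAZ (chr3:57455649-57575910, minus strand, GRCm38), was at 777.7, 860.9 and 659.5 normalized counts in the telogen libraries and at 1640, 1510 and 1719 in the anagen libraries. Every anagen library was above every telogen library. The log2 fold change was 1.09 ± 0.20 (SE, n = 3 and 3; limma, adjusted p = 0.0062), and the call held with any 1 library left out. Yap1, the gene of the paralogous co-activator (chr9:7931999-8004596, minus strand), was at 3525, 2915 and 2876 in telogen and at 2341, 1944 and 1774 in anagen. Here every telogen library was the higher, yet the log2 fold change of -0.62 ± 0.19 missed the threshold (limma, adjusted p = 0.057). Per kilobase of the longest transcript, the level of Yap1 was 4.03, 3.01 and 3.88 times that of Wwtr1 in the telogen libraries and 1.27, 1.14 and 0.918 times in the anagen libraries. In telogen, then, Yap1 was the more abundant of the pair in every library, and in anagen the levels were close. The ratio differed by -1.71 on the log2 scale (two-sided exact permutation p = 0.1, the smallest that 3 libraries against 3 can give).

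Among the DNA-binding factors, Tead1 rose and Tead3 did not pass the test. Tead1 (chr7:112679318-112906807, plus strand) was at 916.3, 865.1 and 967.0 in telogen and at 2105, 2009 and 1607 in anagen, with no overlap. Its log2 fold change was 1.05 ± 0.20 (limma, adjusted p = 0.0068), and without anagen replicate 1 it was 0.97 with an adjusted p of 0.054. Tead3 (chr17:28331671-28350817, minus strand) was at 174.1, 250.5 and 185.5 in telogen and at 186.7, 95.77 and 234.0 in anagen. These groups overlapped, and the log2 fold change of -0.31 had a 95% interval from -1.17 to 0.54. The other TEAD genes behaved less uniformly than Tead1. Tead4 was at 126.4, 162.8 and 111.1 in telogen and 57.76, 49.31 and 87.47 in anagen, a log2 fold change of -1.05 that did not pass (adjusted p = 0.122). Tead2 was at 118.7, 100.7 and 43.12 in telogen and at 64.62, 95.85 and 58.01 in anagen, and the groups overlapped.

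Taking the 4 TEAD genes as a whole, per kilobase of transcript, Tead1 made up 42.2% ± 6.37 (SD, n = 3) of their summed level in telogen and 67.3% ± 7.75 in anagen. Its share ranged from 35.9% to 48.6% in telogen and from 58.7% to 73.7% in anagen, so the ranges did not meet. The share of Tead4 was 19.6% ± 2.01 in telogen and 7.47% ± 2.50 in anagen. Tead3 held 26.7% ± 3.46 in telogen and 17.6% ± 7.29 in anagen, and Tead2 held 11.5% ± 4.86 and 7.60% ± 2.35.

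The kinase genes did not pass the threshold. Lats1 (chr10:7681214-7716460, plus strand) was at 1286, 2374 and 2100 in telogen and at 3133, 2964 and 2795 in anagen. The groups did not overlap, but telogen replicate 1 lay well below the other telogen libraries. The log2 fold change was 0.67 ± 0.24 (limma, adjusted p = 0.092), and it was 0.85 without telogen replicate 2 (adjusted p = 0.049) and 0.41 without telogen replicate 1 (adjusted p = 0.153). Lats2 (chr14:57689662-57758388, minus strand) was at 729.9, 1806 and 1740 in telogen and at 1256, 1057 and 1164 in anagen. The telogen libraries lay on both sides of the anagen libraries, with a log2 fold change of -0.19 and a 95% interval from -0.89 to 0.51. Of the exon bases of Lats2, 42.4% are shared with Gm49361, an annotated gene on the same strand that was listed at 0 in every hair cycle library, so the division of reads between them is uncertain. The ratio of Lats1 to Lats2 per kilobase was 1.27, 0.947 and 0.869 in telogen and 1.80, 2.02 and 1.73 in anagen. Every anagen ratio was the higher (two-sided exact permutation p = 0.1, the smallest possible). Amotl2 (chr9:102716672-102733418, plus strand), the angiomotin gene, was at 104.8, 288.0 and 213.1 in telogen and at 249.7, 297.3 and 301.3 in anagen. The groups overlapped and its log2 fold change of 0.60 did not pass (adjusted p = 0.34).

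The target genes Ctgf and Cyr61 were both lower in anagen on average, but by different amounts and with different spread. Ctgf (chr10:24595442-24598683, plus strand) was at 8972, 5761 and 4995 normalized counts in telogen and at 873.1, 985.4 and 1340 in anagen. The lowest telogen library was well above the highest anagen library. The log2 fold change was -2.60 ± 0.25 (limma, adjusted p = 1.3e-04), and it stayed between -2.78 and -2.35 with any 1 library left out. Of its exon bases, 23.2% are shared with Gm15270 on the opposite strand, and since strand was not stated to be used in the counting, reads in that stretch cannot be told apart. Cyr61 (chr3:145646976-145649981, minus strand) was at 10796, 7587 and 2904 in telogen and at 3109, 3387 and 2819 in anagen. Its telogen replicate 3 fell among the anagen libraries, while the other telogen libraries were well above them. The log2 fold change was -1.001 ± 0.38 (limma, adjusted p = 0.115), and it was -1.55 without telogen replicate 3 (adjusted p = 0.0026) and -0.60 without telogen replicate 1 (adjusted p = 0.266). The ratio of Ctgf to Cyr61 per kilobase was 0.674, 0.616 and 1.39 in telogen and 0.228, 0.236 and 0.386 in anagen (two-sided exact permutation p = 0.1, the smallest possible).

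Telogen replicate 1 had the highest Yap1, Cyr61 and Ctgf and the lowest Lats1, Lats2, Amotl2 and Tead3 of the telogen libraries. Without it, Ctgf, Wwtr1 and Tead1 remained past the threshold, with log2 fold changes of -2.35, 1.10 and 1.05, and no further member joined them. Markers of proliferation and of other cell types were compared in the same libraries. All 10 proliferation markers were higher in anagen at an adjusted p under 0.05, with a summed level of 22728 to 36840 against 2184 to 3565 in telogen and a median log2 fold change of 4.92. Of the 8 fibroblast markers, 5 passed the filter, 2 were higher and 1 was lower in anagen. Their sum, 27726 to 36713 in anagen and 138233 to 184140 in telogen, was carried by Postn, and without it the sums were 469.5 to 627.9 and 316.2 to 648.8. Of the 6 melanocyte markers, 4 were tested, 1 was higher and 1 was lower in anagen. The sums of all 6 were 1376 to 1470 in anagen and 2900 to 3277 in telogen. The telogen sum was carried by Mitf, the lower one, at 2801 to 3125 in telogen and 684.8 to 995.0 in anagen. Dct, the higher one, was at 61.21 to 133.5 in telogen and 387.3 to 709.3 in anagen. Of the 7 endothelial and mural markers, 2 were tested and 1 was higher, while Cdh5 was at 0 in every library. The sums of all 7 were 134.3 to 182.2 in anagen and 81.53 to 143.5 in telogen. Of the 8 immune markers 7 were tested and 0 passed, with sums of 147.1 to 186.3 in anagen and 186.3 to 444.5 in telogen. Of the 8 interfollicular epidermis markers 1 was higher, with sums of 10807 to 18671 and 12583 to 20827. Of the 8 hair germ and matrix markers 7 were tested and 1 was lower. The sums of all 8 were 2832 to 2971 in anagen and 1517 to 2472 in telogen. Among the 14 bulge markers, Itga6 was higher and Cd34 lower in anagen, and the products of both were used to sort the cells. Apart from Cdh5, no marker of these lists was at 0 in every library. The part of these changes in the values of the YAP and TEAD genes was not tested.

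A few other genes of the pathway passed an adjusted p under 0.05 between anagen and telogen. Over all genes tested, 11.6% passed it, 27.3% had an unadjusted p under 0.05, and the groups lay apart for 33.3%. Of 13 upstream kinase and scaffold genes, all tested, 1 was higher and 0 were lower at an adjusted p under 0.05, and the median log2 fold change was 0.13. The gene that passed was Mob1b, which encodes a co-activator of LATS kinases, at 2583, 2061 and 2206 in telogen and 4450, 3279 and 3291 in anagen (log2 fold change 0.68, adjusted p = 0.047). The call was lost without any 1 of the libraries other than telogen replicate 1, with an adjusted p of up to 0.223. Among the other TEAD factors and cofactors, 4 of 6 were tested and 0 passed by limma, with 1 higher and 1 lower at an unadjusted p under 0.05. Vgll4, whose product competes with YAP for TEAD, came closest, at 164.7, 521.7 and 522.1 in telogen and 952.5, 946.4 and 784.7 in anagen (log2 fold change 1.32, adjusted p = 0.054). Its anagen libraries were all above its telogen libraries.

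Of 12 junction and cytoskeletal regulators, 11 were tested, 1 was higher and 1 was lower in anagen, with a median log2 fold change of 0.39. Over all genes tested, 11.6% passed the same threshold. Amotl1, an angiomotin like Amotl2, was at 2127, 4233 and 2739 in telogen and 5854, 6215 and 6129 in anagen (log2 fold change 1.06, adjusted p = 0.016). Ptpn14, a phosphatase gene whose product retains YAP outside the nucleus and which is also a YAP target, was at 3498, 4049 and 3530 in telogen and 2100, 2254 and 2452 in anagen (log2 fold change -0.70, adjusted p = 0.027). For both genes the groups lay apart, as they did for 33.3% of all genes. The call of Amotl1 was lost without any 1 anagen library (adjusted p up to 0.068), and that of Ptpn14 without any 1 anagen library or telogen replicate 2 (up to 0.132). Of 18 other YAP and TAZ target genes, 16 were tested, 2 were higher and 2 were lower, with a median log2 fold change of 0.11. The higher ones were Birc5 (log2 fold change 3.43, adjusted p = 4.4e-04), an inhibitor of apoptosis that also acts in cell division, and F3 (3.002, adjusted p = 0.010), the gene of tissue factor, whose call was lost without anagen replicate 1 or 2 (up to 0.062). The lower ones were the receptor tyrosine kinase gene Axl (-1.26, adjusted p = 0.0031) and Ptpn14. The named target genes thus lay on both sides of 0, and the list as a whole was centred near the median of all genes.

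Between Eed iKO and control libraries, none of the 9 members tested passed an adjusted p under 0.05, where 0.0267% of all 15008 genes tested passed. By limma at an unadjusted p under 0.05, 1 member was higher (Ctgf) and 1 was lower (Tead3), against 14.7% of all genes. DESeq2 and edgeR on the recovered reads also called 0 members, where they called 672 and 5 genes in the whole table. The groups of libraries did not overlap for 1 of the 9 members, against 20.2% of all genes. The median log2 fold change of the members was -0.05 and that of all genes was -0.0011. No member passed the thresholds of the study's methods, a log2 fold change beyond 1.5 and an unadjusted p under 0.05, against 1.75% of all genes. With the other threshold that the study names, a fold of 1.5 or more and an adjusted p under 0.05, 0 members passed by limma, against 0.0267% of all genes. The study found its differential genes with DESeq2, which called far more genes than limma here, so this share is not the study's own. Ctgf, at 1.62-fold, exceeded that fold but not the adjusted p. The plot of the control and Eed iKO libraries gives these values.

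**Figure D2:**
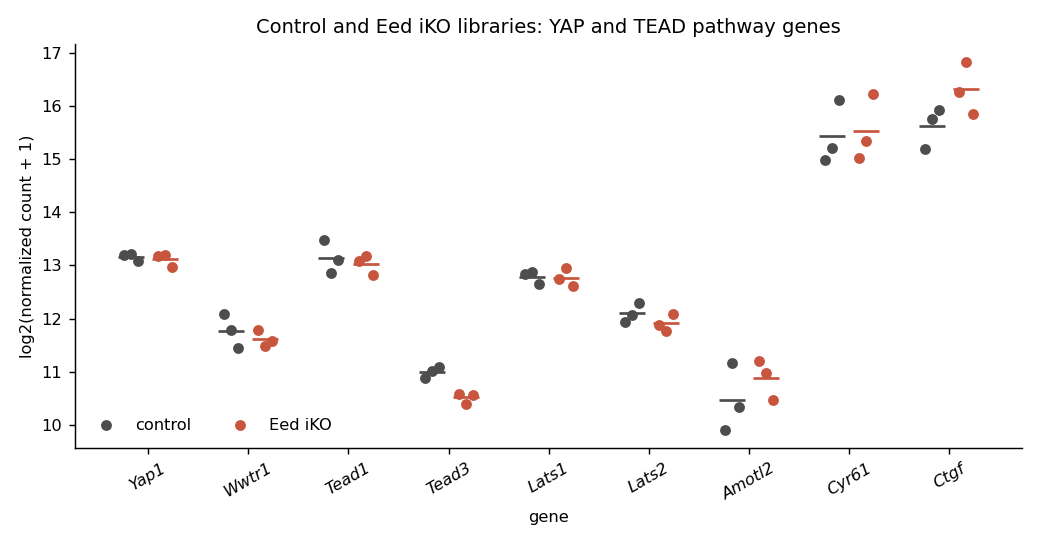
Normalized counts of the 9 members with a row in the table, as log2(count + 1), in the 3 control and 3 Eed iKO libraries, with each point a library and each bar the mean of its group. Tead3 is the gene whose groups lie apart, and the points of every other member overlap.

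Ctgf was at 37229, 55480 and 62072 in control and at 78839, 115992 and 59498 in Eed iKO. Replicates 1 and 2 of Eed iKO were above every control library, and replicate 3 was below control replicate 3. The log2 fold change was 0.70 ± 0.26 with a 95% interval from 0.13 to 1.26 (limma, adjusted p = 0.244), and the adjusted p by DESeq2 on the recovered reads was 0.067. The summed level of the 10 proliferation markers followed a like order, at 16141 and 17377 in Eed iKO replicates 1 and 2 and 7431 in replicate 3, against 6611 to 8120 in control, and its part in the Ctgf values was not tested. Cyr61 was at 32362, 38061 and 71272 in control and at 33470, 41796 and 76761 in Eed iKO. Its groups covered nearly the same range, with a log2 fold change of 0.10 and a 95% interval from -0.64 to 0.83. The ratio of Ctgf to Cyr61 per kilobase was 0.933, 1.18 and 0.706 in control and 1.91, 2.25 and 0.628 in Eed iKO (two-sided exact permutation p = 0.4).

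Tead3 was at 1887, 2064 and 2184 in control and at 1535, 1345 and 1514 in Eed iKO. Every Eed iKO library was below every control library. The log2 fold change was -0.48 ± 0.16 (limma, adjusted p = 0.207, and 0.093 by DESeq2 on the recovered reads), and it ranged from -0.54 to -0.42 with 1 library left out. Tead4 was at 1509, 2062 and 1746 in control and at 1405, 1369 and 1228 in Eed iKO, and its difference of -0.40 on the log2 scale did not pass (adjusted p = 0.339). Tead1 was at 11411, 7393 and 8760 in control and at 8721, 9280 and 7253 in Eed iKO. These groups overlapped, with a log2 fold change of -0.11 and a 95% interval from -0.50 to 0.28. Tead1 made up 40.8% ± 6.51 of the summed TEAD level per kilobase in control and 45.7% ± 3.44 in Eed iKO.

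The co-activator and kinase genes differed little, and their intervals bound the size of a change. Yap1 was at 9340, 9523 and 8733 in control and at 9249, 9446 and 8080 in Eed iKO, with a log2 fold change of -0.05 and a 95% interval from -0.33 to 0.24. Wwtr1 was at 4324, 3544 and 2799 in control and at 3536, 2861 and 3050 in Eed iKO, with a log2 fold change of -0.16 and an interval from -0.56 to 0.24. The ranges of the groups overlapped for both, and the ratio of Yap1 to Wwtr1 per kilobase was 1.92 to 2.77 in control and 2.33 to 2.94 in Eed iKO (two-sided exact permutation p = 0.6). Lats1 was at 7304, 7538 and 6469 in control and at 6888, 7967 and 6228 in Eed iKO, an interval of the log2 fold change from -0.33 to 0.30. Lats2 was at 3930, 4269 and 5031 in control and at 3783, 3478 and 4337 in Eed iKO, an interval from -0.53 to 0.15. Both kinase genes thus overlapped between the groups. Amotl2 was at 960.2, 2284 and 1292 in control and at 2364, 2019 and 1407 in Eed iKO, and its interval of -0.26 to 1.09 was among the widest. For 7 of the 9 members the 95% interval lay within 1 log2 unit of 0. The plot of fold changes sets the comparisons side by side, without a test between them.

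**Figure D3:**
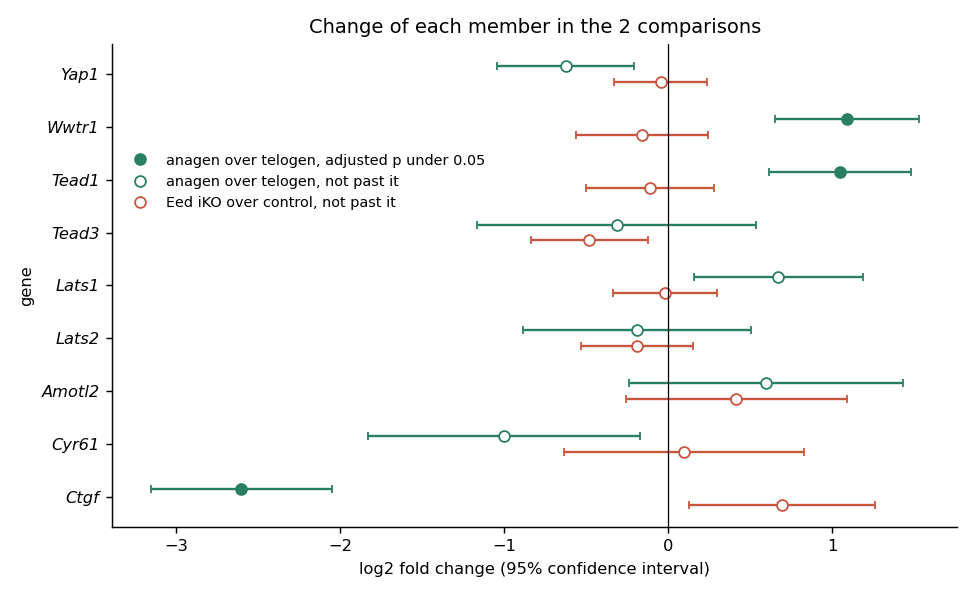
Log2 fold change of 9 members (points) with 95% confidence intervals (bars), for anagen over telogen and for Eed iKO over control, with filled points where the adjusted p was under 0.05. The filled points are Wwtr1 and Tead1 above 0 and Ctgf below 0, all for anagen over telogen.

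The other pathway lists also gave 0 calls between Eed iKO and control at an adjusted p under 0.05 by limma. At an unadjusted p under 0.05 a few genes passed, where 14.7% of all genes tested did. Of 13 kinase and scaffold genes 1 was higher at the unadjusted threshold, namely Map4k4 (log2 fold change 0.39, adjusted p = 0.191), a kinase gene upstream of LATS. Of 12 junction and cytoskeletal regulators 2 were lower, the LIM domain gene Limd1 (-0.40, adjusted p = 0.187) and Ptpn14 (-0.32, adjusted p = 0.284). Of the 16 other target genes tested 3 were lower and 0 higher, led by Crim1 (-0.39, adjusted p = 0.25) and Rbms3 (-0.35, adjusted p = 0.284). The remaining one was again Ptpn14, which is on both lists. Of the 4 other TEAD factors and cofactors tested, Tead4 was the 1 past it. The medians of these lists lay between -0.11 and 0.04. Markers of other cell types gave 0 adjusted calls by limma as well, with sums that overlapped between the groups for fibroblast markers (178706 to 299220 in control, 200129 to 262458 in Eed iKO), endothelial and mural markers (462.1 to 665.5, 361.2 to 705.9), immune markers (266.5 to 492.3, 392.5 to 816.1), melanocyte markers (7832 to 9130, 7874 to 8820), interfollicular epidermis markers (25601 to 63940, 24514 to 86313), hair germ and matrix markers (13871 to 19776, 17180 to 17473) and bulge markers (1373267 to 1607344, 1502973 to 1746387). By DESeq2 on the recovered reads 3 of these markers passed, while edgeR called 0: Dlx3 of the hair germ and matrix list was lower (limma log2 fold change -1.04, DESeq2 adjusted p = 3.5e-04), and among the bulge markers Krt14 was higher (0.82, 7.6e-04) and Fgf18 lower (-0.74, 0.035). Behind the overlapping sums, the groups lay apart for some single markers, with an unadjusted p under 0.05 by limma. Over all genes tested, the groups lay apart for 20.2%, and 14.7% had such a p. Among immune markers, Cd207 was at 13.28 to 23.73 in Eed iKO and at 0 in every control library. H2-Ab1 was at 83.66 to 156.2 in Eed iKO and 8.33 to 54.4 in control. The fibroblast marker Col1a1 was lower in Eed iKO, at 92.47 to 238.3 against 247.7 to 781.6. So was the epidermis marker Flg, at 71.71 to 288.2 against 346.2 to 938.1. In the hair germ and matrix list 1 marker was higher and 1 lower at that unadjusted threshold. The higher one was Cdh3, at 10779 to 12069 in Eed iKO against 6658 to 10097 in control. Among bulge markers 2 were higher, Krt14 and Itga6, and 3 were lower. Proliferation markers gave 0 adjusted calls by limma and 3 of 10 at an unadjusted p under 0.05, all higher in Eed iKO. Among them Cdk1 passed by DESeq2 (adjusted p = 0.036), and 2 markers passed by limma without Eed iKO replicate 3. The part of these markers in the members' values was not tested.

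Within each group the order of the members was broadly shared. Per kilobase of transcript, Cyr61 and Ctgf were the highest members in every group. In telogen, Cyr61 was at 3514 ± 1966 (SD, n = 3) and Ctgf at 2641 ± 847.5, and their ranges overlapped. They were followed by Yap1 at 587.9 ± 68.96, above every remaining member in every telogen library. Lats2 and Lats1 came next at 274.6 ± 116.2 and 266.3 ± 78.50, with overlapping ranges, then Wwtr1 at 163.1 ± 21.56 and Tead1 at 91.94 ± 5.11. Tead3 at 59.06 ± 11.96 and Amotl2 at 45.63 ± 20.81 were lowest and overlapped. In anagen, Cyr61 alone stood out at 1538 ± 140.8, and Ctgf at 428.2 ± 97.94 overlapped with Lats1 at 411.2 ± 23.44. Yap1 at 382.4 ± 55.14 and Wwtr1 at 345.5 ± 22.41 also overlapped, followed by Lats2 at 223.3 ± 19.20 and Tead1 at 191.4 ± 26.51. Amotl2 at 63.87 ± 6.48 and Tead3 at 50.00 ± 20.41 again closed the order. The ratio plot gives the pairs of paralogs and target genes by library.

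**Figure D4:**
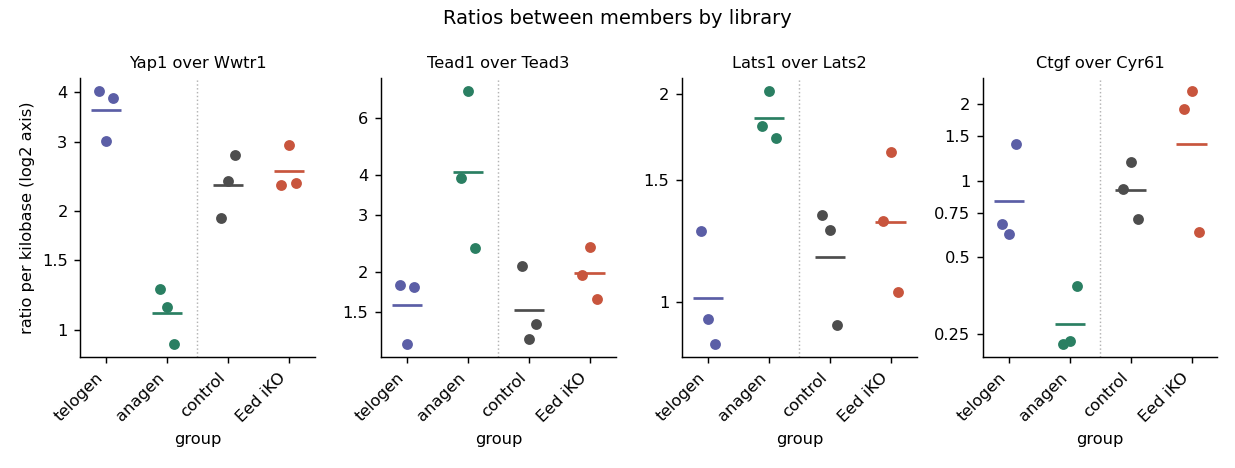
Ratio of levels per kilobase of transcript between 2 members, on a log2 axis, for 4 pairs of genes in the telogen, anagen, control and Eed iKO libraries, with each point a library and each bar the geometric mean of its group. The dotted line divides the separately normalized tables, and in all 4 panels the anagen points lie apart from the telogen points.

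In control, Cyr61 at 23394 ± 10408 and Ctgf at 20720 ± 5168 per kilobase overlapped and were followed by Yap1 at 1742 ± 78.31, whose range stood clear of its neighbours. Lats1, Tead1, Lats2 and Wwtr1 followed at 985.4 ± 78.00, 922.1 ± 205.0, 849.5 ± 108.7 and 757.0 ± 162.3, each overlapping with the next. Tead3 was at 593.9 ± 43.41 and Amotl2 lowest at 341.6 ± 155.6. In Eed iKO, Ctgf at 34047 ± 11531 and Cyr61 at 25099 ± 11377 again led and overlapped, with Yap1 next at 1690 ± 139.8. Tead3 at 425.4 ± 30.23 and Amotl2 at 436.0 ± 109.5 overlapped at the bottom.

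The spread of Cyr61 among libraries of the same group was close to that of several immediate early genes, a set switched on within minutes by stress or growth factors, including during cell dissociation. Each library's deviation from its group mean was taken on the log2 scale, and 13218 genes were ranked by the correlation of these deviations with those of Cyr61 over the 12 libraries. The nearest were Fosb (0.992), Azin1 (0.980), Adamts1 (0.973), Midn (0.966) and Dusp1 (0.966), with Junb at rank 6, Egr1 at rank 10 and Jun at rank 14. Other immediate early genes came further down, with Atf3 at rank 33 (0.916), Fos at rank 40 (0.910), Ier2 at rank 66 (0.877) and Ier3 at rank 402 (0.707). These are descriptions, and the 12 points share library preparation and depth. Fosb, a subunit of the AP-1 transcription factor, was at 10480, 7984 and 2342 in telogen, where Cyr61 was at 10796, 7587 and 2904. Both genes were highest in telogen replicate 1 and lowest in replicate 3, and in both control and Eed iKO both were lowest in replicate 1 and highest in replicate 3. With the 2 libraries farthest from the median of Fosb left out, the correlation of Cyr61 with Fosb was 0.986.

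The summed level of the 18 immediate early and dissociation stress genes had the same order within those groups. It was 108163, 75706 and 32216 in telogen, 917587, 973488 and 1941571 in control, and 811573, 1060137 and 1798014 in Eed iKO. In anagen it was nearly level at 81580, 84000 and 78371, as was Cyr61. Of these 18 genes, 2 were higher in anagen than in telogen (Fos and Ier2, log2 fold changes 1.67 and 1.35, the call of Ier2 lost without any 1 anagen library or telogen replicate 2 or 3) and 0 were lower, whereas Cyr61 was lower on average. Between Eed iKO and control 0 of the 18 passed by limma. The part of dissociation stress in the Cyr61 values was not tested.

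Ctgf had this order in telogen and in control, but not in Eed iKO, where its replicate 3 was the lowest. The correlation of its deviations with those of Cyr61 was 0.307, at rank 3032 of the 13218 genes, and with those of Fosb it was 0.252, or -0.175 without the 2 libraries farthest from the median of Fosb. The genes nearest to Ctgf were Sdhaf2 (0.933), Igbp1 (0.930), Smyd2 (0.910), Lhx2 (0.902) and Ube2a (0.893). Lhx2, a LIM homeobox factor that marks the bulge, was at 11217, 7877 and 7593 in telogen and at 5574, 5854 and 7742 in anagen. Its order within each of these groups was that of Ctgf. In the panels that set Cyr61 and Ctgf against Fosb, the points of Cyr61 lie near a line and those of Ctgf do not. Ankrd1 could not be ranked, since it had no value above 0. Deviations of Yap1 (0.061), Wwtr1 (-0.163), Tead1 (-0.343) and Amotl2 (-0.414) were weakly or negatively correlated with those of Cyr61.

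**Figure D5:**
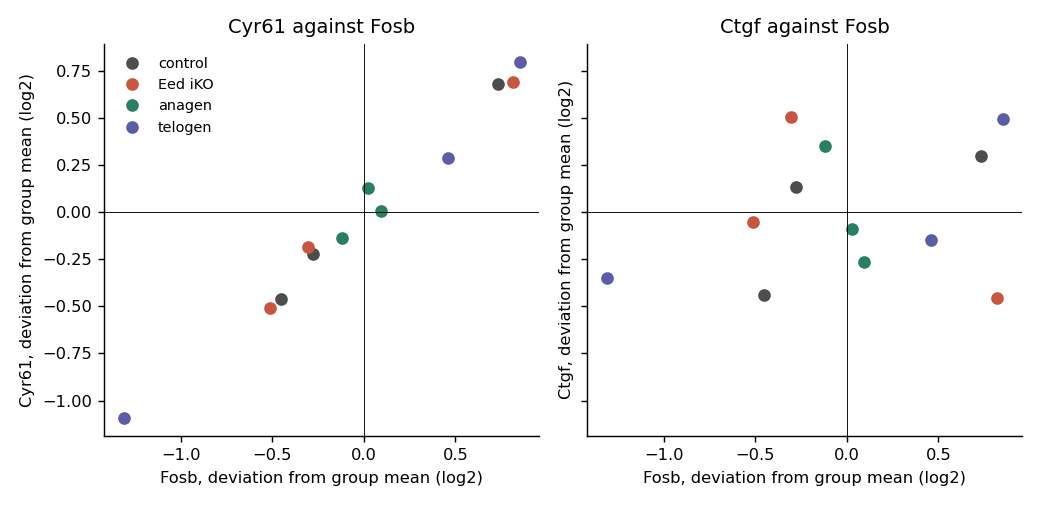
Deviation of Cyr61 (left) and Ctgf (right) from the group mean against that of Fosb, in log2 units, for the 12 libraries coloured by group. The Cyr61 points rise with Fosb (correlation 0.992), and the Ctgf points are scattered (0.252).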

How the data were processed

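Conditions and replicate numbers came from the sample labels. The authors quantified reads with Kallisto (0.42.5) on Gencode transcripts and deposited a signal per protein-coding gene and library, a count normalized with DESeq2. In the Eed table this signal was the count divided by the library's size factor. In the hair cycle table a single factor per library did not account for the signal, and its scaling is unknown. The deposited p-values, log2 fold changes and scores of the authors' own comparisons were not used. Each table was fitted on its own with limma 3.58.1 (R 4.3.3, intensity trend) on log2(normalized count + 1), after filterByExpr with a minimum of 10, and p-values were adjusted by Benjamini-Hochberg over all genes tested. Fold changes are on this scale and understate changes of low genes. In the Eed table, 100% of each library's values were whole reads within 0.01 read, and on these DESeq2 1.42.0 and edgeR 4.0.16 were run, calling 672 and 5 genes. Coordinates and transcript lengths came from GENCODE vM21 (GRCm38), promoters from RefSeq. The limma test was checked on simulated data with changes larger than those of most members and the same dispersion for every gene. That check does not bear on differences as small as those between Eed iKO and control. The members and lists were chosen with earlier results of these data known. All members were named, and from each list at most 4 genes past the threshold or, where none passed, at most 2 with the smallest unadjusted p.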

Additional observations from a re-analysis of the deposited data

How the results depend on the processing

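The count of genes past an adjusted p under 0.05 in all of the Eed table, 4 by limma, was 2 without the intensity trend, 1 with a correction for transcript length, 672 with DESeq2 on the recovered reads, and 1 to 203 with 1 library left out, the highest without Eed iKO replicate 3. Members called were 0 in each of these. For anagen against telogen the count, 1556, was 842 without the trend and 597 to 1529 with 1 library left out (597, 712 and 854 without anagen replicates 1, 2 and 3), and members called ranged from 2 to 4. DESeq2 and edgeR were not run on the hair cycle table, where no whole reads could be recovered. With the replicate number as a block (replicate block), 424 genes passed between Eed iKO and control and 1224 between anagen and telogen. The numbers share no stated litter or batch. Correlations of same-numbered libraries were 0.039, 0.0684 and 0.193 in the Eed table, so only replicate 3 was over 0.1, and -0.0348, -0.0711 and -0.0294 in the hair cycle table. The own number was the best match for 2 of 3 numbers in the Eed table and 0 of 3 in the other, and Cyr61, Fosb and the immediate early sum had 1 order by number in control and Eed iKO. Among the pathway genes named for the hair cycle, the block took away the calls of Mob1b (adjusted p = 0.073) and Ptpn14 (0.066) and added Vgll4 (0.042). Between Eed iKO and control it called Dlx3 (0.0030), Krt14 (0.0090), Fgf18 (0.016), 1 proliferation marker and, of the immediate early genes, 2 higher and 3 lower. Under the block, 0 and 3 members were called, with an adjusted p of 0.068 for Ctgf between Eed iKO and control.

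Of 234 values of single members under these alternatives, 216 kept their direction and their side of the threshold. The rest, apart from the changes given beside Tead1, Cyr61 and Lats1 for the hair cycle, were reversals of small differences whose cause was not tested. Between Eed iKO and control, the length correction gave log2 fold changes of 0.032 for Yap1, 0.022 for Tead1, -0.017 for Cyr61 and 0.080 for Lats1. Leaving out 1 library gave ranges of -0.089 to 0.024 for Yap1, -0.26 to 0.057 for Tead1, -0.25 to 0.44 for Cyr61 and -0.11 to 0.064 for Lats1. Between anagen and telogen it gave -0.58 to 0.058 for Tead3 and -0.62 to 0.037 for Lats2. With 3 libraries per group, changes of low or variable members such as Tead3, Amotl2 and Cyr61 were bounded only by the wide intervals given for them.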
